A study of Mus musculus with 24 samples.

Results

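The entries for reads with a non-templated U at the 3′ end, called U-tailed here, were examined across miRNAs in small RNA libraries of 3T9 cells. This line was immortalised from fibroblasts of mouse embryos. Members were chosen on their measured counts. A miRNA entered if it had a U entry and at least 1000 counts summed over all its isoforms in the 21 labelled libraries. Of the 610 U entries in the table this left 137 members with at least 50 U-tailed counts over those libraries and 85 with fewer. Another 26 miRNAs passed the count limit without a U entry. The measure is the U count as a percentage of all counts of that miRNA in the same library, and no limit was set on it. Its numerator bore on the choice all the same, through the U entry that membership required and the 50 U counts that a test required. The miRNAs nearest the limit were miR-340-5p with 1008 and miR-212-3p with 1010 counts inside, and miR-1947-5p with 981 and miR-1934-5p with 976 counts outside.

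Cells grown in DMEM with 10% serum were given 300 µM 4-thiouridine (4SU), a uridine analogue, for 3 h and then 1 mM uridine. RNA carrying 4SU was biotinylated and captured from 40 µg total RNA after 0, 2, 4, 6, 8, 10 and 12 h of this chase, in 3 experiments, giving 21 labelled libraries. A further 3 libraries, with 1 of each kind, held RNA from unlabelled cells without extraction (unlabelled total RNA), RNA from pulsed cells without extraction (4SU total RNA), and what an extraction recovered from cells never given 4SU (the negative extraction). No genotype or transgene is given for the line, which was the same in all groups.

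Uridylation of small RNAs is the work of terminal uridylyltransferases, chiefly Tut4 (Zcchc11) and Tut7 (Zcchc6) in mammals. They act on precursor hairpins and on mature strands. On the let-7 precursors a long U tail laid down with Lin28 blocks Dicer and marks the RNA for decay by Dis3l2, while a single U can restore the end that Dicer prefers. The 3′ end of a 3p strand is also the 3′ end of its precursor, whereas that of a 5p strand is made by Dicer.

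Library totals were 1133048 to 7886484 miRNA counts in the labelled libraries, 6412428 in unlabelled total RNA, 4525638 in 4SU total RNA and 283922 in the negative extraction. Members held 99.2 to 99.6% of them. Of the fibroblast and mesenchymal miRNAs listed, miR-21a-5p, miR-22-3p and miR-143-3p were abundant. Their median values were 67760, 41544 and 105528 CPM (counts scaled to a common library total). The rest of that list, miR-199a-3p, miR-214-3p and miR-145a-5p, had medians of 9707, 1001 and 314 CPM. The epithelial miR-205-5p stood at a median of 563 CPM, above miR-145a-5p. The other markers listed for blood, liver, neurons, muscle, epithelium and embryonic stem cells had medians of 0 to 8.93 CPM, the highest being miR-206-3p of muscle, miR-9-5p of neurons (5.17) and miR-150-5p of blood (3.45). Experiments 1, 2 and 3 each carry their own code in the table header; the negative extraction shares that of experiment 1, and the total RNA libraries have another. A difference between labelled and total RNA therefore cannot be told apart from a difference between these codes.

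Sequences of 184 members were found in RefSeq (GRCm38.p6), and for 164 the hairpin gave a single base after the mature end. The sets below are shown because their members share a seed (bases 2 to 8, in capitals) and differ in U-tailed share. The last letter, also in capitals, is not part of the mature miRNA: it is the base that follows its end in the hairpin. The let-7 guides, which restrain Ras, Hmga2 and Lin28, come first, ordered from the highest U-tailed share to the lowest. The line for let-7f-5p holds the mature strand alone, since its 2 hairpins differ in the next base.
let-7e-5p: uGAGGUAGgagguuguauaguuG
let-7i-5p: uGAGGUAGuaguuugugcuguuG
miR-98-5p: uGAGGUAGuaaguuguauuguuG
let-7b-5p: uGAGGUAGuagguugugugguuU
let-7g-5p: uGAGGUAGuaguuuguacaguuU
let-7d-5p: aGAGGUAGuagguugcauaguuU
let-7c-5p: uGAGGUAGuagguuguaugguuU
let-7a-5p: uGAGGUAGuagguuguauaguuU
let-7f-5p: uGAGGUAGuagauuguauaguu

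The miR-148 family, known for repressing the DNA methyltransferase Dnmt1, and the miR-15/16 family, which restrains cell cycle genes, each hold a strand rich in U tails beside relatives with far fewer. The line for miR-15a-5p holds the mature strand alone.
miR-148b-3p: uCAGUGCAucacagaacuuuguC
miR-152-3p: uCAGUGCAugacagaacuuggG
miR-148a-3p: uCAGUGCAcuacagaacuuuguC
miR-322-5p: cAGCAGCAauucauguuuuggaG
miR-15a-5p: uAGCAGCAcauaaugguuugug
miR-15b-5p: uAGCAGCAcaucaugguuuacaU
miR-16-5p: uAGCAGCAcguaaauauuggcgU

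The next set holds miRNAs whose share was called for a change over the chase, with 1 untested relative, miR-99a-5p. The first 3 are the miR-99/100 family, known as repressors of Mtor. The line for miR-99b-5p holds the mature strand alone.
miR-99b-5p: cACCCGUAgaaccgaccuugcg
miR-100-5p: aACCCGUAgauccgaacuugugC
miR-99a-5p: aACCCGUAgauccgaucuugugG
miR-221-5p: aCCUGGCAuacaauguagauuucuguG
miR-30e-3p: cUUUCAGUcggauguuuacagcG
miR-125b-1-3p: aCGGGUUAggcucuugggagcuG
miR-423-3p: aGCUCGGUcugaggccccucaguC
miR-484: uCAGGCUCaguccccucccgauA

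U tails were carried very unequally. Mean shares over the 21 labelled libraries ran from 0 to 76.7%: 5 members lay at 50% or above, 21 between 10 and 50%, 74 between 1 and 10%, 71 between 0.1 and 1%, and 51 below 0.1%. The highest was miR-148b-3p, for which the U-tailed form outnumbered all others in every library (lowest 73.6%, median 76.5%, highest 80.3%). It is read from chromosome 15 (103285185 to 103285206, plus strand), inside an intron of Copz1. The next was miR-7224-3p, with a lowest value of 61.5%, a median of 73.1% and a highest of 77.7%. Then came miR-322-3p with 53.1, 65.8 and 72.8%, from chromosome X (53054269 to 53054289, minus strand), where no host gene is annotated on that strand.

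The other members among the 12 highest were miR-6944-3p (mean 54.0%), miR-3102-3p.2-3p (51.2%), miR-7068-3p (48.8%), miR-652-3p (37.5%), let-7e-3p (35.9%), miR-322-5p (30.7%), the cartilage miRNA miR-140-5p (23.7%), miR-24-3p (23.3%) and miR-328-3p (22.4%). Only miR-322-5p and miR-140-5p among these 12 are 5p strands. Precision differed with depth: the SD over 21 libraries was 2.01 points for miR-148b-3p with 139168 counts and 9.21 points for let-7e-3p with 4454. miR-466d-3p, a member of a family of near-identical repeats, had a mean of 21.2% that is uncertain for that reason and ranged from 0 to 41.5%.

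**Figure D1:**
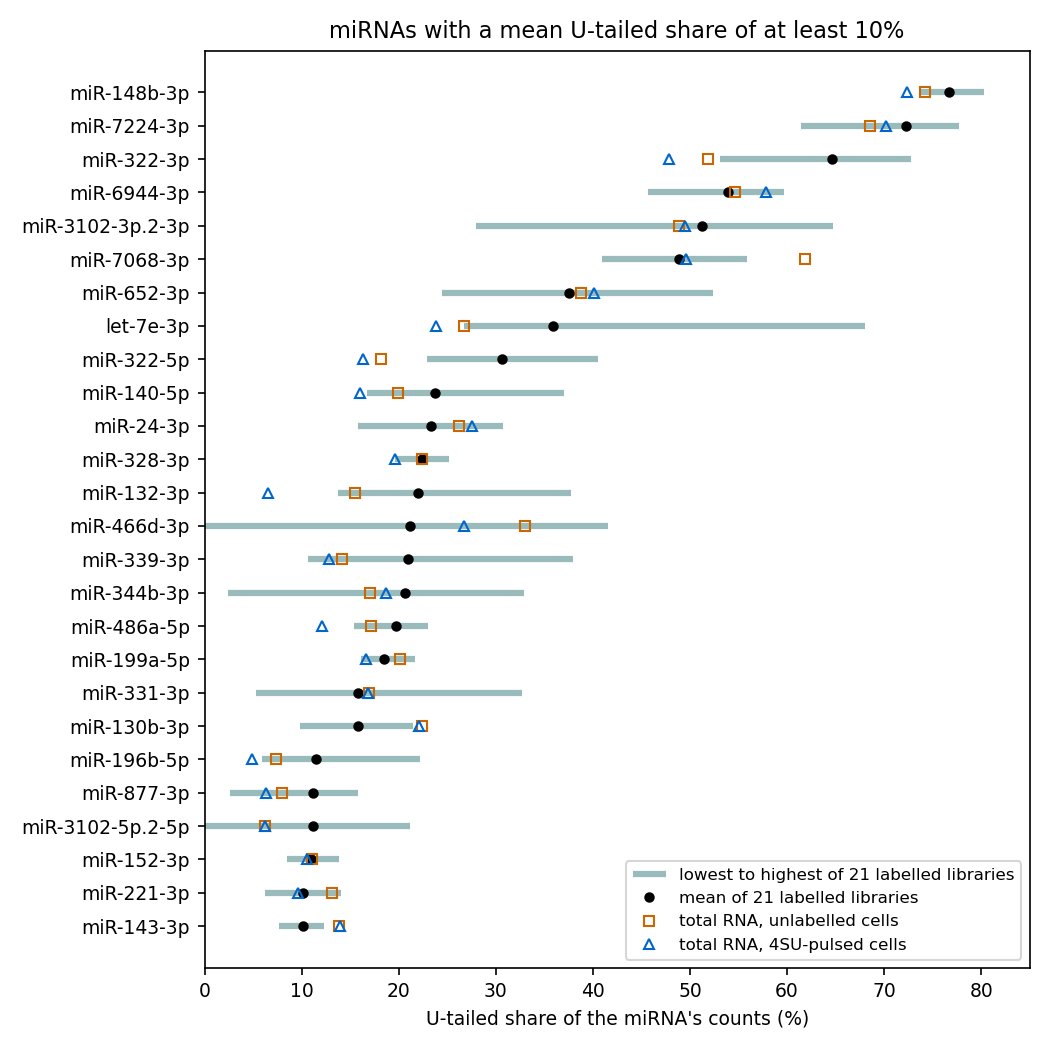
U-tailed share (x axis, % of the miRNA's counts) of the 26 members with a mean of at least 10%. Dots are means and bars run from the lowest to the highest of the 21 labelled libraries; open squares and triangles are the single total RNA libraries, which for miR-322-5p lie at 18.2 and 16.3%, below every labelled library.

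Some of the most abundant members had almost no counts in their U entry. Among members with at least 100000 counts the lowest shares were those of miR-16-5p, with 4 U-tailed of 1312990 counts, let-7f-5p with 62 of 8442470, miR-191-5p with 13 of 1162137, miR-22-3p with 72 of 3606431 and let-7a-5p with 59 of 1873807. In the hairpins of miR-16-5p, miR-191-5p, miR-22-3p and let-7a-5p the base after the mature end is U. An added U cannot be told apart there from a read that runs 1 base further along the hairpin. Of the 10 most abundant members, miR-143-3p, which promotes smooth muscle differentiation, had the highest share (mean 10.2%, range 7.71 to 12.3%). It supplied 40.0% of all U-tailed counts of the members, and with miR-27b-3p (10.9%), miR-148b-3p (5.19%), miR-99b-5p (4.51%) and miR-151-3p (4.48%) 65.1%. The others of the 10 had mean shares of 4.44% (miR-27b-3p), 4.16% (miR-99b-5p), 3.57% (miR-26a-5p), 2.63% (miR-182-5p), 1.5% (let-7i-5p), 1.06% (miR-92a-3p), 0.0404% (miR-21a-5p), 0.00169% (miR-22-3p) and 0.00071% (let-7f-5p). No U-tailed count was seen in the labelled libraries for let-7a-1-3p, miR-18a-5p, miR-301a-5p, miR-339-5p and miR-361-5p, whose summed counts of 1838, 1573, 1704, 1086 and 10013 allow shares of up to 0.163, 0.191, 0.176, 0.276 and 0.03%. All but miR-301a-5p have a U after the mature end, so the same limit holds for them.

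Strands with the same seed often differed. In 14 of the 20 groups of members that share a seed, the highest mean share was at least 10 times the lowest. In several of these groups the low members have a U after the mature end, where an added U cannot be told apart. The group of miR-98-3p, let-7b-3p and let-7a-1-3p, counted among the 14, rests on U counts of 1, 1 and 0. Among the let-7 guides, let-7e-5p had 4.23 ± 0.404% (SD, n = 21), let-7i-5p 1.5 ± 0.303% and miR-98-5p 0.996 ± 0.239%. The 5 with a U after the mature end had less: let-7b-5p 0.458 ± 0.128%, let-7g-5p 0.0284 ± 0.0142%, let-7d-5p 0.00878%, let-7c-5p 0.00689% and let-7a-5p 0.00341%. The lowest of these guides was let-7f-5p, with 0.00071%. In the miR-148 family the means were 76.7% for miR-148b-3p, 11.0 ± 1.82% for miR-152-3p and 4.30 ± 0.712% for miR-148a-3p, and the ranges over libraries did not overlap. In the miR-15/16 family miR-322-5p had 30.7 ± 5.36%, miR-15a-5p 0.491 ± 0.723%, miR-15b-5p 0.0106% and miR-16-5p 0.00021%.

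Other relatives showed the same kind of contrast. The pair miR-221-3p and miR-222-3p, which repress the cell cycle inhibitor Cdkn1b, had mean shares of 10.2 and 0.0117%. Their reads differ in the end itself. Templated 3′ extensions, which run further along the hairpin, made up 98.1% of miR-222-3p counts and 2.52% of those of miR-221-3p. miR-130b-3p had 15.8% and miR-130a-3p 2.93%, and miR-132-3p had 21.9% and miR-212-3p 0.722%, the last on 10 U counts. Reads classed as trimmed made up 86.6% of miR-130a-3p and 78.5% of miR-212-3p counts, against 46.1% of miR-130b-3p and 7.36% of miR-132-3p. miR-351-5p had 8.03% where miR-125a-5p had 0.428% and miR-125b-5p 0.0235%. The base after the end of miR-125b-5p is U, so an added U cannot be told apart there. The miR-26 guides had closer values, 3.57 ± 0.560% for miR-26a-5p and 3.19 ± 0.502% for miR-26b-5p, a difference within their spread. Their ends differ, however. miR-26b-5p has a U after the mature end and 71.0% templated 3′ extensions, against a G and 0.465% in miR-26a-5p. An added U cannot be told apart at the end of miR-26b-5p, so these shares do not compare like with like. miR-27b-3p and miR-27a-3p had 4.44 and 0.710%, with 55.0 and 89.4% of their counts classed as trimmed. The miR-30 guides ran from 0.0252% (miR-30e-5p) to 1.38% (miR-30c-5p), with templated 3′ extensions at 95.6 and 91.7% of the counts of these 2. Shares of the miR-181 guides ran from 0.0985 to 0.949%, and those of the measured guides of miR-17~92 and miR-106b~25 from 0 to 1.87%. The only miR-29 guide among the members, miR-29a-3p, had 0.0912%. Mirtron strands are cut from short introns by the spliceosome instead of Drosha. Those on a fixed list, which need not hold every mirtron, had a median of 5.56% over 8 members. They ran from 0.0666% (miR-702-3p) to 51.2% (miR-3102-3p.2-3p). Of the let-7 3p strands, let-7e-3p stood at 35.9% and the other 4 between 0 and 0.127%. These 4 have a U after the mature end, where an added U cannot be told apart, and let-7e-3p has a C.

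Shares differed with the base that follows the mature end in the hairpin. Where it was U, 50 members had a median share of 0.0596%, with 29 below 0.1% and none at 10% or above. Where it was A, C or G the medians were 1.26% (n = 30), 1.72% (n = 33) and 1.20% (n = 51). Of these 114 members, 12 lay below 0.1% and 16 at 10% or above. At an end followed by U, an added U and a read that runs 1 base further along the hairpin have the same letters, so the table cannot tell them apart. The 8 members with a U next and a share of at least 1% were miR-26b-5p (3.19%), miR-205-5p (3.07%), miR-671-3p (3.03%), miR-1198-5p (2.07%), miR-224-5p (1.85%), miR-30c-5p (1.38%), miR-34a-5p (1.33%) and miR-423-5p (1.22%). The A-tailed share had its lowest median, 0.463%, where A came next, against 1.38% before C, 2.18% before G and 2.08% before U. The base was taken after the annotated end, where few reads of some members end, miR-222-3p among them. Members are not independent of each other, since families share sequence, and no test was made.

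**Figure D2:**
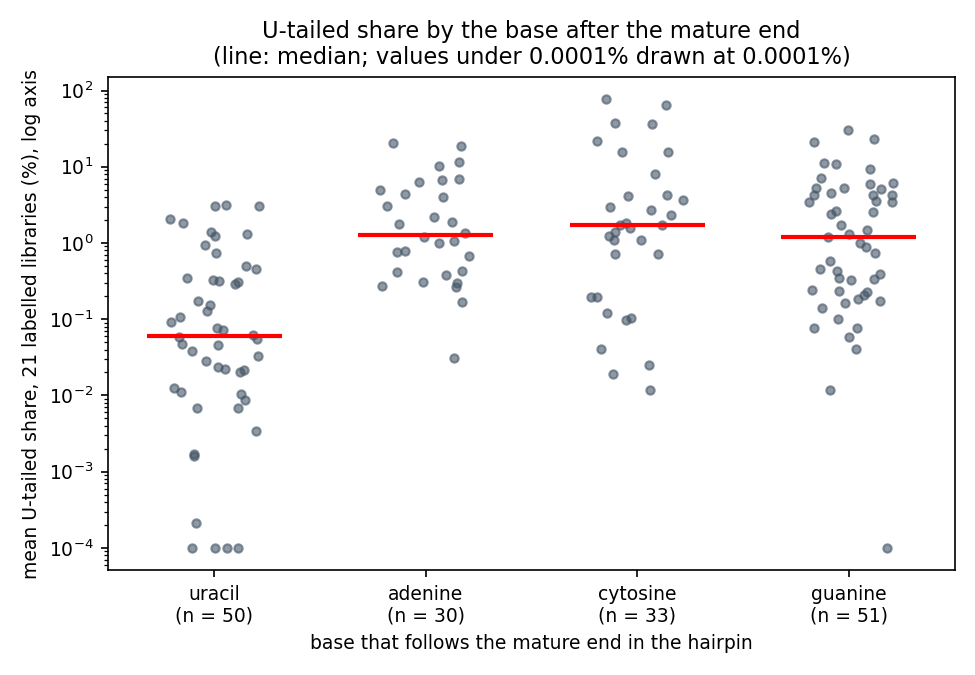
Mean U-tailed share over the 21 labelled libraries (y axis, %, log scale) of 164 members grouped by the base that follows the mature end in the RefSeq hairpin. Each dot is 1 miRNA and each line a median: 0.0596% before uracil against 1.26, 1.72 and 1.20% before adenine, cytosine and guanine.

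Shares also differed between the arms of the hairpin. The 107 strands named 3p had a median share of 1.72%, and 20 of them lay at 10% or above. The 112 strands named 5p had a median of 0.339%, with 6 at 10% or above. Among members with a single A, C or G after the mature end, the medians were 2.70% for 61 strands of the 3p arm and 0.428% for 51 of the 5p arm. In 52 hairpins both arms were members, and the 3p strand had the higher share in 33. miR-148b had 76.7% on the 3p and 0.176% on the 5p strand, whereas miR-140 had 0.0312% on the 3p and 23.7% on the 5p strand. The only one of them with both strands at 10% or above was miR-322, with 30.7% on the 5p and 64.6% on the 3p strand.

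The U-tailed part of the pool was smaller at the end of the chase than at its start in all 3 experiments. Summed over all members, the share was 2.80 ± 0.105% (SD, n = 3) at 0 h and 2.25 ± 0.186% at 12 h. It was 2.86, 2.68 and 2.86% at 0 h in experiments 1, 2 and 3 and 2.46, 2.12 and 2.17% at 12 h, so the groups did not overlap. Between them it was 2.60 ± 0.221, 2.57 ± 0.227, 2.54 ± 0.143, 2.43 ± 0.201 and 2.25 ± 0.137% at 2, 4, 6, 8 and 10 h. With each miRNA held at its mean part of the counts the values were 2.69 and 2.36%, and without the 5 members that supply most U counts 1.27 and 1.04%. The median member had 0.727 ± 0.265% at 0 h and 0.354 ± 0.264% at 12 h. That median was lowest in experiment 2, the least deep, and its time points overlapped. Library totals were also lower at 12 h than at 0 h in every experiment. Members with any U count numbered 184, 149 and 180 at 0 h and 157, 121 and 147 at 12 h in experiments 1, 2 and 3. The part of depth in the fall of this median was not tested. Over members with at least 10000 counts the median was 1.03 ± 0.0969% at 0 h and 0.723 ± 0.108% at 12 h. These sums over chosen members were given no test. In RNA from many cells, a low share in every cell and a high share in a few cannot be told apart.

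Single members were tested with edgeR's quasi-likelihood test on the U counts with the miRNA's total as offset, so that a slope is the log2 change of the share per hour. It ran over 1340 isoform entries of all kinds, with Benjamini-Hochberg adjustment over all of them. The 137 members with at least 50 U counts were tested, and the other 85 were not. The slope was lower in 10 and higher in 1. Over all entries 3.13% were called lower and 3.66% higher. Slopes were below 0 in 91 of the 137, with a median of -0.01, against 659 of 1340 and a median of 0.00 over all entries. With the experiment as a block, which holds each experiment's own level apart, 19 fell and 2 rose, where 8.36% of all entries were called lower and 9.93% higher. All 11 calls of the first fit were among these 21. For these 11, adjusted p with the block ran from 5.22e-07 (miR-151-3p) to 0.0132 (miR-320-3p) by edgeR's quasi-likelihood test. Unless the block is named, the fits below that leave out libraries or experiments were run without it.

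The slope called under all 36 alternative fits that were run was that of miR-99b-5p, from chromosome 17 (17830194 to 17830215, plus strand) in an intron of Spaca6. Its U-tailed share was 4.98, 4.84 and 4.59% at 0 h and 2.64, 3.53 and 2.91% at 12 h in experiments 1, 2 and 3. Every 12 h value lay below every 0 h value. The slope was -0.06 ± 0.01 (SE) log2 per hour (adjusted p = 0.000729, edgeR's quasi-likelihood test), a 1.59-fold difference between 0 and 12 h. Its seed relative miR-100-5p had 1.48, 1.21 and 1.09% at 0 h and 0.774, 0.970 and 0.623% at 12 h, again without overlap. The slope was -0.06 ± 0.01 (adjusted p = 0.0135, edgeR), and the call was lost without experiment 1 (adjusted p = 0.321) and without the 12 h libraries (0.162). The third strand of the family, miR-99a-5p, was under the limit of 50 U counts.

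miR-151-3p had the smallest adjusted p. It had 7.46, 6.36 and 6.67% U-tailed reads at 0 h and 5.68, 5.49 and 5.25% at 12 h. All 12 h values were lower, and the slope was -0.03 ± 0.00352 (adjusted p = 2.04e-05, edgeR). In miR-221-5p, the partner strand of miR-221-3p, the share was 6.77, 5.74 and 4.26% at 0 h and 3.04, 2.19 and 3.05% at 12 h, a 1.99-fold difference. The groups were apart, and most of the difference lay before 4 h in experiments 1 and 2. Its slope (-0.08 ± 0.02, adjusted p = 0.011, edgeR) was not called without the 0 h libraries (adjusted p = 0.49), nor without experiment 1 (0.116) or 2 (0.09).

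The remaining falls were in miR-298-5p, miR-30e-3p, miR-125b-1-3p, miR-484, miR-423-3p and miR-320-3p. miR-298-5p had the steepest of the called slopes, -0.10 ± 0.02 (adjusted p = 0.00508, edgeR), at a low level: 0.0956, 0.0950 and 0.0690% at 0 h and 0.0485, 0.0558 and 0.0380% at 12 h. It was not called without experiment 1 (adjusted p = 0.103) or 3 (0.0613). miR-298-5p has a U after its mature end, so an added U cannot be told apart there from a longer templated read. miR-30e-3p, from an intron of Nfyc, had 5.64, 5.87 and 4.04% at 0 h and 2.00, 4.33 and 2.24% at 12 h, so that experiment 2 at 12 h lay above experiment 3 at 0 h. Its call (adjusted p = 0.0159, edgeR) was lost without the 0 h library of experiment 1 (0.065) or 2 (0.0529), without all 0 h libraries (0.353), and without experiment 1 (0.309) or 3 (0.111).

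miR-125b-1-3p had 2.69, 2.82 and 1.83% at 0 h and 1.78, 1.09 and 1.06% at 12 h, and the groups were just apart. Its call (adjusted p = 0.0214, edgeR) was lost without the 0 h library of experiment 1 (0.0793) or 2 (0.0760), or when experiment 3 lacked its 12 h library (0.0565). Leaving out all 0 h (0.287) or all 12 h libraries (0.109), or experiment 2 (0.178) or 3 (0.0835), also ended it. miR-484 had 7.78, 6.37 and 6.56% at 0 h and 5.13, 4.57 and 5.33% at 12 h, and miR-423-3p had 4.27, 4.12 and 4.56% against 3.28, 3.99 and 2.96%. In both the groups were apart, with adjusted p of 0.00853 and 0.00813 (edgeR), and both calls were lost without experiment 1 (0.152 and 0.194). That of miR-484 was also lost without the 12 h libraries (0.172), and that of miR-423-3p without experiment 3 (0.188) or the 0 h libraries (0.156). miR-320-3p was the weakest call (adjusted p = 0.0445, edgeR). It was lost in 14 of the 21 fits that left out 1 library, with adjusted p of 0.0511 to 0.114 in those, and also when any 1 experiment was left out (0.0604 to 0.279) and without the 0 h (0.0740) or 12 h libraries (0.165). Its groups overlapped.

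The choice of denominator mattered more for some of these falls than for others. With the canonical sequence alone as denominator, the slope of miR-125b-1-3p went from -0.06 to -0.00124 (adjusted p = 0.989, edgeR) and that of miR-320-3p from -0.03 to -0.00255 (0.976), both near 0. The calls of miR-151-3p (adjusted p = 0.112), miR-484 (0.122), miR-221-5p (0.0573) and miR-423-3p (0.0524) were lost there too, at slopes of -0.02, -0.03, -0.06 and -0.03. Tested as levels, which follow the amount of the isoform and not its share, miR-151-3p (adjusted p = 0.862 with TMM scaling, edgeR), miR-484 (0.616), miR-423-3p (0.443) and miR-30e-3p (0.0919) were not called, nor were they with DESeq2 size factors (0.0884 to 0.825). By limma on log2 shares miR-30e-3p (adjusted p = 0.0811) and miR-320-3p (0.0549) were not called, and miR-320-3p was not called without a count filter (0.0680).

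The rise was in miR-322-5p, the mouse counterpart of miR-424. Its share was 22.9, 25.9 and 27.7% at 0 h and 37.8, 33.6 and 39.0% at 12 h in experiments 1, 2 and 3. All 12 h values were above all 0 h values, with a slope of 0.05 ± 0.00879 (adjusted p = 0.00142, edgeR). It was not called on either level scale (adjusted p = 0.0891 and 0.0910). The share of miR-322-3p, from the other arm of the same hairpin, had a slope of 0.01 that was called with the block (adjusted p = 0.00386) and not without it (0.396). As levels with TMM scaling, the U-tailed miR-322-3p had a slope of -0.06. The slopes of miR-99b-5p, miR-151-3p and miR-322-5p kept their calls when any 1 experiment was left out.

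**Figure D3:**
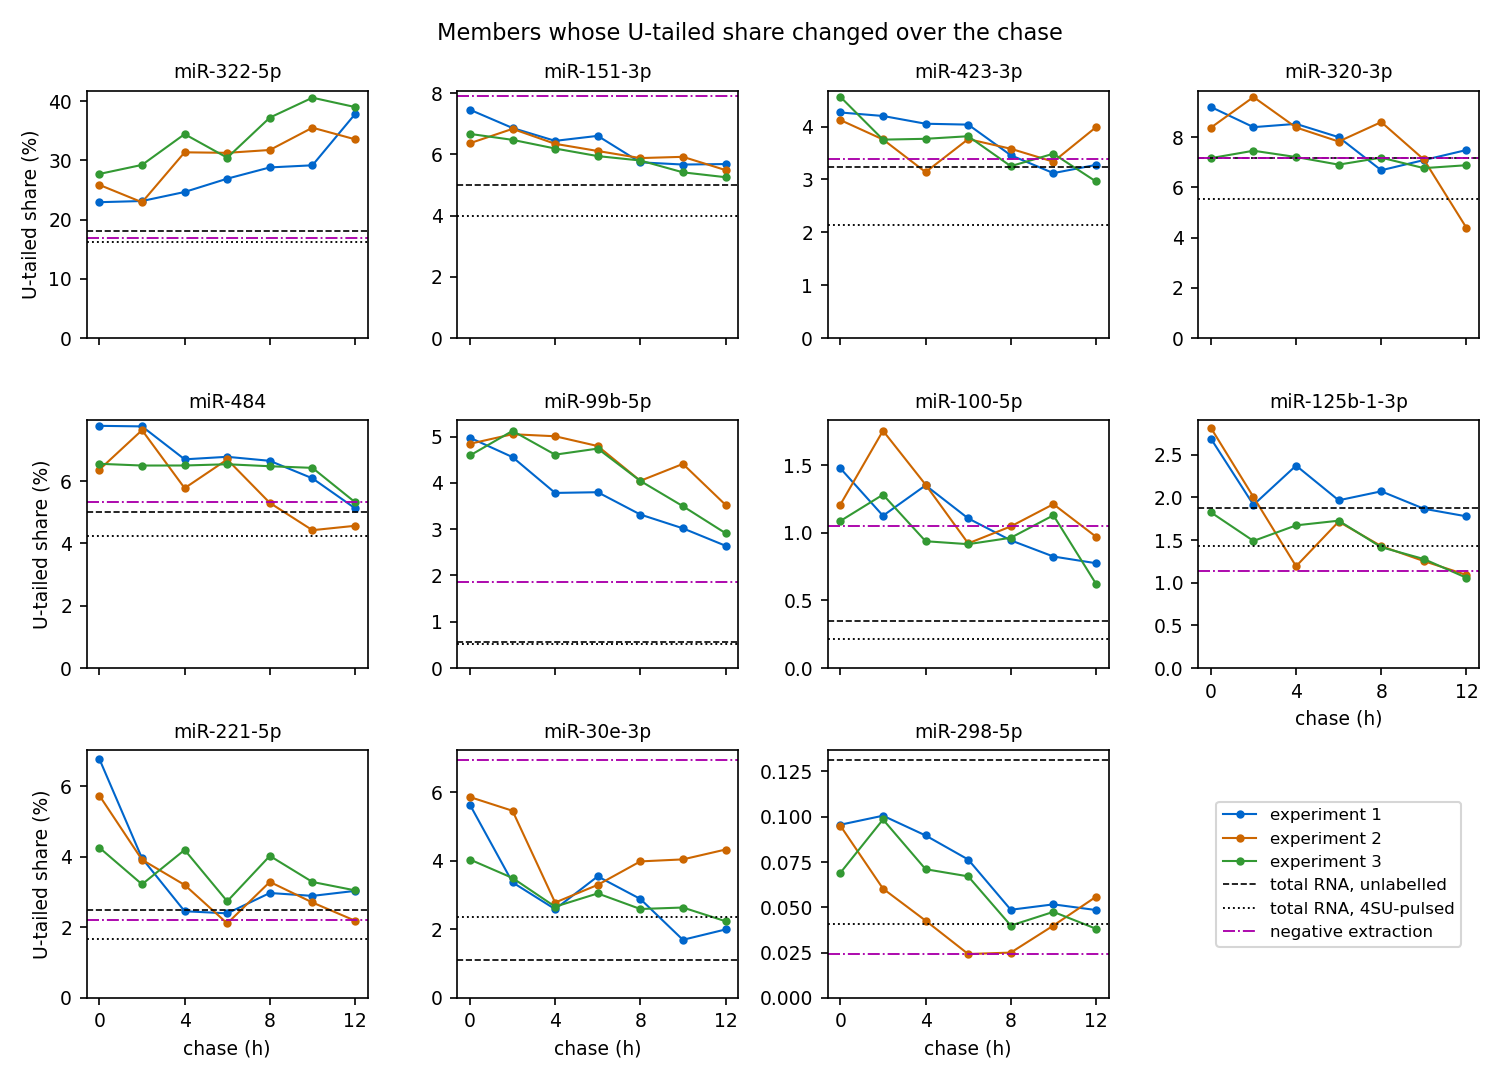
U-tailed share (y axis, %) against hours of chase for the 11 members called for the slope, 1 panel each, with 1 line per experiment and horizontal lines for the 3 control libraries. Lines run downward in 10 panels and upward for miR-322-5p, and all labelled values of miR-99b-5p lie above the total RNA lines at 0.565 and 0.523%.

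The 10 members called for the slope with the block alone were miR-322-3p, rising, and miR-92a-3p, miR-25-3p, miR-125b-5p, miR-328-3p, miR-6944-3p, miR-486a-5p, miR-143-3p, miR-351-5p and miR-27b-3p, falling. Of these, miR-125b-5p has a U after the mature end, where an added U cannot be told apart. miR-92a-3p had 1.27, 1.26 and 0.991% at 0 h and 1.06, 0.906 and 0.830% at 12 h. Its 12 h value was below its own 0 h value in every experiment, though the ranges overlapped (adjusted p = 4.43e-06 with the block, 0.0556 without). miR-143-3p, the largest source of U-tailed reads, had adjusted p = 0.0324 with the block and 0.499 without. Relative to the canonical sequence alone its slope was 0.00, with the opposite sign, and that of miR-328-3p was 0.01.

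By family, the slope without the block was called in 0 of 8 tested let-7 guides, 0 of 2 let-7 3p strands, 0 of 2 miR-26, 0 of 2 miR-27, 0 of 1 miR-29, 0 of 4 miR-30, 0 of 3 miR-181, 0 of 6 mirtron and 0 of 2 guide strands of miR-221 and miR-222. It was called in 1 of 2 of the miR-15/16 family, miR-322-5p, and in 2 of 4 of the miR-125, miR-99, miR-100 and miR-10 guides, miR-99b-5p and miR-100-5p. The background is that above, 3.13% lower and 3.66% higher over all entries, or 8.36 and 9.93% with the block. With the block the counts became 0, 0, 0, 1 (miR-27b-3p), 0, 0, 0, 0 and 0, then 1 and 3, the third being miR-125b-5p. The 4 tested guides of miR-17~92 and miR-106b~25 had no call without the block and 2 with it, miR-92a-3p and miR-25-3p. Median slopes were -0.02 for the let-7 guides, -0.06 for the miR-125, miR-99, miR-100 and miR-10 guides and 0.00 for miR-30.

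Set against 0 h alone, the 12 h libraries were lower in 3 members, miR-151-3p, miR-99b-5p and miR-221-5p, and higher in none (edgeR's quasi-likelihood test). Of all entries 0.522% were called lower and 0.821% higher. With the block 11 were lower and 2 higher, where 4.55 and 5.07% of all entries were called. No call was left when experiment 1 lacked its 0 h library, or experiment 3 its 12 h library. miR-151-3p alone was called when experiment 1 lacked its 12 h library, or experiment 2 its 0 h library. The 3 libraries at 12 h lay wholly below those at 0 h in 16 of the 137 tested members and wholly above in 3, against 7.09 and 8.36% of all entries tested. In 38 members the 12 h value was lower in all 3 experiments, and in 11 it was lower in none, against 19.9 and 20.1% of all entries tested.

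After 2 h no member was called in either direction, and 0% of all entries were. Under an unadjusted p of 0.05 there were 5 members, 4 of them lower, and DESeq2 and limma also called 0.

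A tails, the other common addition, gave more calls upward. Of 159 A entries of abundant miRNAs tested in the same fit, 20 had a higher and 1 a lower slope, beside 3.66 and 3.13% of all entries. The difference between U and A was tested within libraries in the 117 miRNAs with at least 50 counts of each, by edgeR's quasi-likelihood test with a term for every library, a test added after the data had been seen. The U slope was below the A slope in 20 of them (17.1%) and above it in 0 (0%), and below it, called or not, in 91, with a median difference of -0.02 log2 per hour. Without experiment 1 the count was 7 lower. The widest called difference was in miR-221-5p, -0.18 ± 0.03 (adjusted p = 3.26e-05), where the U slope was -0.08 and the A slope 0.11. It was -0.10 in miR-99b-5p (U -0.06, A 0.05) and -0.06 in miR-151-3p (U -0.03, A 0.03). Among the 20 were miR-125a-5p, miR-125b-5p and miR-125b-1-3p, miR-181a-5p, miR-181b-5p and miR-181d-5p, and miR-92a-3p, miR-25-3p and miR-93-5p. Of these, miR-125b-5p, miR-181a-5p, miR-181d-5p and miR-93-5p have a U after the mature end, where an added U cannot be told apart. A call here concerns the difference alone and does not mean that the U share fell. In miR-125a-5p, for example, the U slope was -0.02, not called by itself, and the A slope 0.06. The slopes of miR-322-5p did not pass this test (0.04 ± 0.03, adjusted p = 0.17).

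**Figure D4:**
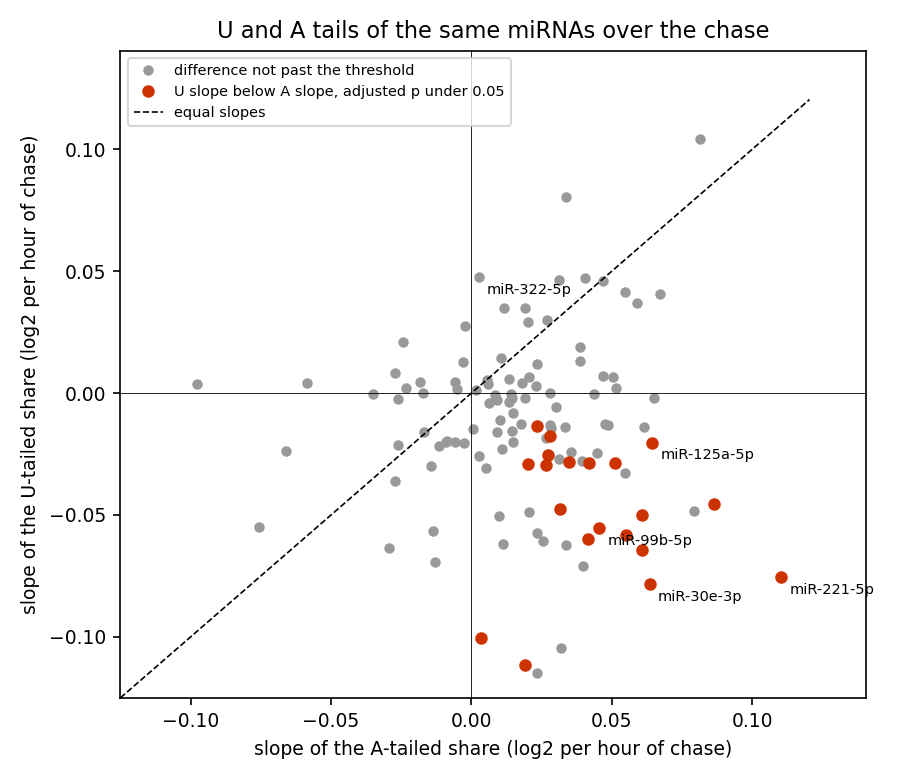
Slope of the U-tailed share (y axis) against that of the A-tailed share (x axis), both in log2 per hour of chase, for 117 miRNAs. The dashed line marks equal slopes; the 20 red dots, all below it, are the miRNAs whose U slope was below their A slope at an adjusted p under 0.05, with miR-221-5p farthest out at -0.08 against 0.11.

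In the control libraries the order of the members was much the same. Across the 137 tested members, Spearman's rho between the labelled mean share and the share in total RNA was 0.955 for unlabelled and 0.911 for 4SU-pulsed cells, as a description over miRNAs that share libraries. Summed over members, U-tailed reads were 2.72% in unlabelled total RNA, 2.84% in 4SU total RNA and 3.09% in the negative extraction. Comparisons with single libraries had no replicate check, and a 2-fold difference was taken as the limit, for members with at least 100 counts in the control and a labelled mean of at least 1%. In unlabelled total RNA 3 of 92 members were at least 2-fold higher and 6 lower, beside 4.45 and 4.55% of all isoform entries held to the same limits. In 4SU total RNA 3 of 88 were higher and 18 lower, beside 5.72 and 7.69%. In the negative extraction 1 of 40 was higher and 2 were lower, beside 0.773 and 7.73%. The limit of 1% was set on the labelled mean alone, so it leaves out members that are high only in a control. Without it, 16 of 205 were higher and 8 lower in unlabelled total RNA. In 4SU total RNA these counts were 12 and 22 of 199, and in the negative extraction 2 and 2 of 84. No share over all entries was taken without that limit.

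The widest gap was in miR-99b-5p. Its labelled mean of 4.16% (lowest library 2.64%) stood against 0.565% (exact Clopper-Pearson 95% interval 0.508 to 0.625%) in unlabelled total RNA and 0.523% (0.472 to 0.579%) in 4SU total RNA. The negative extraction lay between, at 1.86% (1.47 to 2.33%). miR-100-5p had a labelled mean of 1.10% and 0.346% (0.238 to 0.485%) and 0.218% (0.142 to 0.319%) in the total RNA libraries, while the negative extraction gave 1.05% on 478 counts (0.340 to 2.42%). miR-322-5p was below all its labelled libraries in each control, with 18.2, 16.3 and 16.9%. Intervals cover counting error only.

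miR-130a-3p went the other way, with a labelled mean of 2.93% against 7.31% (6.82 to 7.82%) and 9.81% (9.27 to 10.4%) in unlabelled and 4SU total RNA. Its relative miR-130b-3p had 15.8% against 22.4 and 22.1%. The others with a labelled mean of at least 1% and at least 2-fold higher in both total RNA libraries were miR-17-3p and miR-29a-5p. They had 1.72% against 3.95 and 5.97%, and 1.01% against 5.34 and 7.06%, both with under 600 counts there. Below that limit was, among others, miR-27a-3p, with 0.710% against 3.33 and 4.30%. Its relative miR-27b-3p had 4.44% against 6.76 and 7.35%. In the negative extraction miR-351-5p stood out, at 18.8% of 10633 counts against a labelled mean of 8.03% and a highest labelled library of 13.6%. miR-148b-3p stayed close to its labelled mean of 76.7% in every control, at 74.2, 72.3 and 78.1%.

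Between the total RNA libraries, most U shares were lower after the 4SU pulse. Of 111 members with over 3 U counts in both, 81 had a ratio of 4SU to unlabelled below 1, with a median ratio of 0.865. Over 1193 isoform entries of all kinds the median was 1.00, and 588 were below 1. At least 2-fold differences were seen in 11 members lower and 2 higher after the pulse, beside 3.35 and 3.27% of all entries. The lowest ratios were those of miR-1198-5p (2.03% to 0.604%), miR-532-5p (0.288% to 0.0866%) and miR-671-5p (7.28% to 2.24%). With 1 library of each kind, a difference between libraries and an effect of 4SU cannot be told apart.

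**Figure D5:**
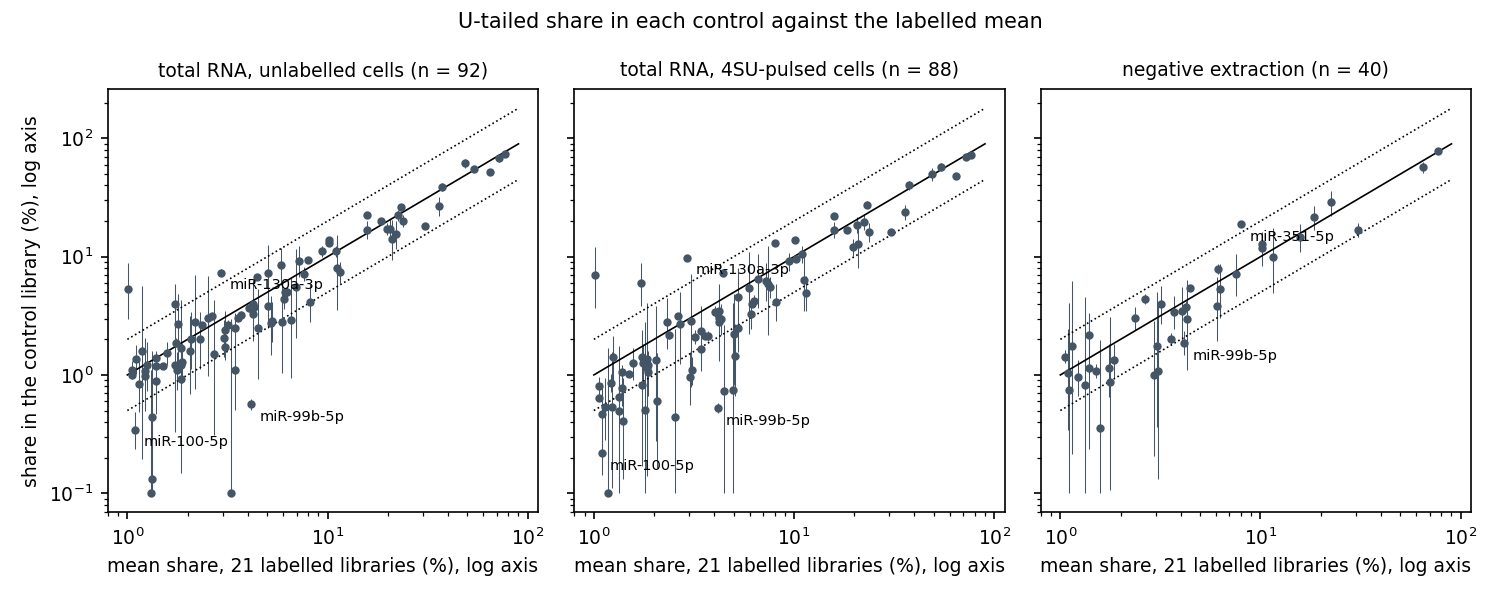
U-tailed share in each control library (y axis, %, log scale; values under 0.1% drawn at 0.1%) against the mean of the 21 labelled libraries (x axis, %, log scale) for members with a labelled mean of at least 1%. Bars are Clopper-Pearson 95% intervals, the full line marks equality and the dotted lines 2-fold differences; miR-99b-5p lies below the lower dotted line in all 3 panels.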

How the data were processed

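Each library's column in the table that the authors deposited holds raw read counts, divided for every mature miRNA among 20 classes of isoform (7129 entries, 1 duplicate removed). The submitters' processing notes name CASAVA 1.8.0. Not given in the sources used here are the aligner, build, multi-mapping rule and class definitions, such as tail length and whether tails on trimmed ends are included. Members, lists and tests were chosen with earlier results of these data known. Slopes and contrasts came from edgeR 4.0.16 (glmQLFit, R 4.3.3) with the log of the miRNA's total count as offset, on entries with at least 50 counts. Benjamini-Hochberg adjustment ran over 1340 entries with a threshold of 0.05. The procedure was tested on simulated data with planted slopes and no differences between experiments, so that test says nothing about the pairing of libraries. DESeq2 1.42.0, limma 3.58.1 and the other alternatives are in the closing section.

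Named members were the 12 highest shares, the 5 lowest with at least 100000 counts, the 10 most abundant, called members and fixed families. Others, such as members of a shared seed, of block calls and of control extremes, were chosen after their values were seen. The experiment number in the labels, with a header code for each experiment, pairs the libraries: deviations of log2 shares from time-point means (75 members with at least 500 U counts) correlated at 0.0642 to 0.666 (median 0.362) in 63 pairs of 1 experiment, 60 of them over 0.1, and at -0.618 to 0.258 (median -0.182) in 126 pairs across experiments and times. Sequences and positions are RefSeq's on GRCm38.p6, and host genes are GENCODE's on the same build.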

Additional observations from a re-analysis of the deposited data

How the results depend on the processing

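The count of 11 called slopes was 14 by DESeq2, 9 by limma, 11 and 13 on levels scaled by TMM or DESeq2 size factors, 10 without a count filter and 13 with at least 500 counts. It was 21 with the replicate block and 21 with the replicate block and without 0 h, and 7 against the canonical sequence alone and 7 without 0 h. Leaving out libraries or experiments gave 4 to 14, lowest without experiment 1 (4) and experiment 3 (7). The 3 calls of 12 h against 0 h became 13 with the replicate block, 8 with the block and limma, 5 by DESeq2 and 0 against the canonical sequence; leave-outs gave 0 to 3. The 2 h count was 0 in every fit run. The 20 U against A calls became 7 to 22 without 1 experiment, lowest without experiment 1. The pooled difference of 12 h minus 0 h, -0.55 points, was -0.228 without the 5 largest contributors and -0.335 at fixed composition. The median member's difference, -0.373, was -0.786 against the canonical sequence. Of 854 refits of 24 member results, 705 kept direction and side of the threshold, 90 lost and 44 gained the call, and 15 reversed. The reversals against the canonical sequence were miR-143-3p (0.004357) and miR-328-3p (0.009667). Those on levels with TMM and DESeq2 scaling were miR-25-3p (0.004218, 0.002806), miR-27b-3p (0.01309, 0.01136), miR-322-3p (-0.0626, -0.06414), miR-486a-5p (0.00346, 0.002188), miR-6944-3p (0.01301, 0.01129) and miR-92a-3p (0.03417, 0.03283), and with TMM alone miR-151-3p at 12 h (0.01047). Levels follow the amount of the miRNA as well as its tail; otherwise the cause was not tested. Fits that combine the block with another choice, the fixed composition and the U against A test were added after the data had been seen. Depth limits the 85 members under 50 U counts, which were not tested, and the negative extraction, where 84 members had 100 counts.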
